A study of Drosophila melanogaster with 6 samples.

Results

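NADH dehydrogenase, or respiratory complex I, was described here through the 40 genes of the count table whose symbol starts with ND-, out of 17611 genes in all. Of these, 34 are canonical nuclear subunits and 6 are paralogs whose symbol carries an added L (ND-20L, ND-24L, ND-49L, ND-51L1, ND-51L2 and ND-B14.5AL). RNA-seq was performed on hand-dissected indirect flight muscles (IFMs) of Drosophila melanogaster pupae staged at 25°C and taken at 72 hours after puparium formation (APF). In one group Act88F-Gal4 drove UAS-Antp, and in the other it drove UAS-GFP, with 3 samples each. The genotypes are written in the labels as Act88F-Gal4;UAS-Antpnls and Act88F-Gal4;UAS-GFPnls, so that both groups carry the driver, and the driver is active late and in flight muscle. Muscles of 6 to 8 pupae were pooled in a sample, and polyA RNA was sequenced from a stranded library after 15 PCR cycles. The labels number the UAS-GFP samples 1 to 3 and these numbers are kept, whereas the UAS-Antp columns could not be tied to single samples and are called A, B and C. The labels call the samples independent replicates, whereas the methods of the study give the RNA-seq replicates as technical ones from a single biological replicate, so p-values measure only the spread between these samples, which may be technical.

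Complex I takes electrons from NADH, passes them along a flavin and a chain of iron-sulfur clusters to ubiquinone, and pumps protons across the inner mitochondrial membrane. It has the shape of an L. In the peripheral arm, the N module oxidizes NADH and the Q module reduces ubiquinone, whereas the membrane arm pumps protons and has its core subunits encoded by the mitochondrial genome. The nuclear genes give the remaining core subunits of the peripheral arm and many accessory subunits on both arms, whose roles are known mostly from mammals. IFMs are packed with mitochondria and power flight by oxidative metabolism.

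Antp, the transgene product, had 716673, 1092524 and 517985 counts in UAS-Antp A, B and C, against 70, 33 and 66 counts in UAS-GFP 1, 2 and 3. Genes were tested with the quasi-likelihood method of edgeR and called at an adjusted P under 0.001, where the Benjamini-Hochberg adjustment covered the 9546 genes with enough counts. Total counts ran from 63217976 to 77781458 with UAS-Antp and from 47460809 to 64485309 with UAS-GFP. Levels are given in CPM, counts per 1000000 after scaling by edgeR's trimmed mean of M-values (TMM). The 50 most abundant genes took 30.2 to 31.0% of the counts with UAS-Antp and 48.2 to 50.1% with UAS-GFP. The 4 fibrillar flight muscle markers (Act88F, fln, TpnC4 and Strn-Mlck) summed to 5148 to 6310 CPM with UAS-Antp and to 116140 to 136925 CPM with UAS-GFP, so the markers of the labeled tissue were low in the UAS-Antp samples. Of 7 tubular muscle markers 6 rose, where 16.3% of all tested genes were called higher, and their sum was 12038 to 14920 CPM with UAS-Antp and 111 to 178 CPM with UAS-GFP. The 4 tracheal markers all fell, where 19.3% of all tested genes were called lower, to a sum of 143 to 214 CPM with UAS-Antp, against 657 to 705 CPM with UAS-GFP, and their part in the results below was not tested. None of the 4 neuron, 4 hemocyte, 4 fat body or 2 tested myoblast markers passed the test. Testis markers set UAS-Antp B apart from the other samples and are given with the paralogs.

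The nuclear subunits of complex I fell together in muscles expressing Antp. Of the 34 canonical subunits, 33 had enough counts to be tested and all 33 were lower with UAS-Antp, whereas 19.3% of all tested genes passed in that direction. The median log2 fold change of the 33 subunits was -2.65, a level 6.28-fold lower, and the median of all tested genes was 0.17. In none of the 33 did the 3 UAS-Antp samples overlap the 3 UAS-GFP samples in CPM, and 30.6% of all tested genes were lower in this way. The adjusted P of the subunits ran from 1.06e-08 to 9.77e-06. All 33 also passed whichever of the 6 samples was left out, UAS-Antp B included. In bulk muscle, fewer fibers and less RNA per fiber cannot be told apart.

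**Figure D1:**
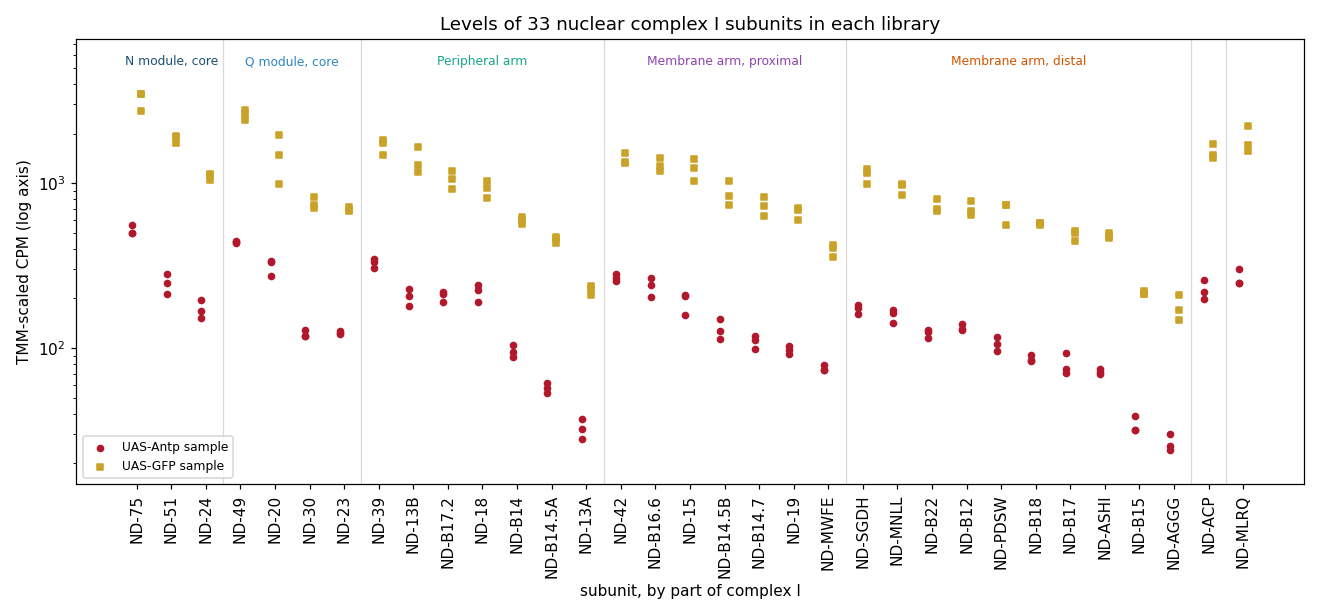
Levels of the 33 tested canonical subunits, in TMM-scaled CPM on a log axis, with 1 point for each library and the subunits grouped by their place in complex I. For every subunit the 3 UAS-Antp points lie below the 3 UAS-GFP points, and the order of the subunits is similar in both genotypes.

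The fall was also seen in plain shares of the counts. ND- transcripts took 0.853, 0.875 and 0.963% of all counts in UAS-Antp A, B and C, against 2.07, 2.14 and 2.26% in UAS-GFP 1, 2 and 3. The 3 UAS-Antp samples thus lay close to each other and well under every UAS-GFP sample. The summed level after scaling was 5680 ± 300 CPM with UAS-Antp and 34069 ± 2746 CPM with UAS-GFP (SD, n = 3 each). How large the fall appears depends on the reference. With total counts as the only scaling, the subunit median was -1.34, and 32 of 33 subunits passed, where 7.19% of all tested genes were called lower. The median of all tested genes then moved up by 1.31 on the log2 scale. Under that scaling 4969 genes were called higher and 686 lower, whereas TMM gave 1557 higher and 1840 lower. Set against the median over all genes, the subunit median was lower by 2.82 on the log2 scale under TMM and by 2.82 under total counts. A change of scaling shifts all genes by nearly the same amount, so this gap could hardly move and does not tell which reference is right.

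The change was uniform from subunit to subunit. Log2 fold changes ran from -2.99 for ND-B14.5A to -2.07 for ND-18. Their SD was 0.20 over the 33 subunits, against 2.26 over all tested genes. The latter include weakly expressed genes, whereas every subunit lay at or above percentile 87.7 of average level. A spread this small was not particular to complex I. The SD was 0.17 over the 11 tested genes of ATP synthase and 0.24 over the 4 of complex II. Complex III had 0.76 over 9 tested genes, with UQCR-11L at -4.95. Requiring at least 50 counts in 3 samples left UQCR-11L out, and the SD was then 0.21 over 8 genes. Complex IV had 2.60 over 8, with COX7A at 4.67, while its other tested genes ran from -3.10 to -2.37. Both lists keep L-suffix genes, whereas no L-suffix gene of complex I was tested. Of the 33 subunits 32 lay within 0.5 of their own median, a window that held 5.98% of all tested genes. The standard error of a single subunit was 0.12 at the median and ran from 0.10 to 0.22, which compares with the SD of 0.20 between subunits. Neither the level nor the length of the gene went with the size of the change. Across the 33 subunits, which share the same 6 libraries, Spearman's rho was 0.17 between log2 fold change and mean level, and 0.20 between log2 fold change and exon length. The 9 subunits encoded on the X chromosome had a median log2 fold change of -2.64, and those on the autosomes had -2.66.

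**Figure D2:**
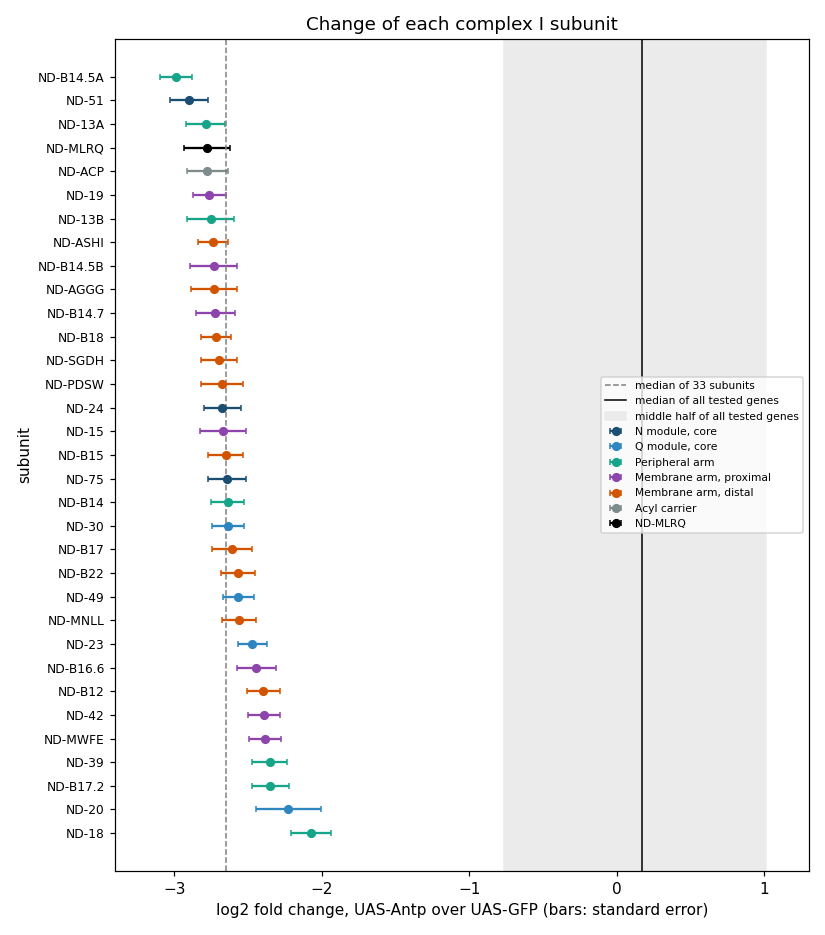
Log2 fold change (UAS-Antp over UAS-GFP) of the 33 subunits, where bars are standard errors and colors mark the place in the complex. The subunits lie between -2.99 and -2.07, left of the grey band that holds the middle 50% of all tested genes.

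The N module, where NADH is oxidized, had a median log2 fold change of -2.67 over its 3 core subunits. ND-51, which carries the flavin and binds NADH, had 213, 247 and 283 CPM in UAS-Antp A, B and C, against 1876, 1755 and 1921 CPM in UAS-GFP 1, 2 and 3. Its UAS-Antp samples held 13.4% of the UAS-GFP level on average, one of the deepest falls of the complex (log2 fold change -2.90 ± 0.13 SE, adjusted P = 3.42e-08). ND-75, the large iron-sulfur subunit and the member with the most counts, had 558, 495 and 497 CPM with UAS-Antp, against 3456, 2757 and 3466 CPM with UAS-GFP. ND-24, the small iron-sulfur subunit that sits beside ND-51, had 153, 168 and 197 CPM with UAS-Antp, against 1122, 1050 and 1136 CPM with UAS-GFP. Both changed by close to the median of the complex, with log2 fold changes of -2.64 for ND-75 and -2.67 for ND-24.

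In the Q module, the 4 core subunits had a median log2 fold change of -2.52. ND-49, which forms the quinone pocket with ND-20, had 443, 431 and 448 CPM with UAS-Antp and 2621, 2427 and 2778 CPM with UAS-GFP (log2 fold change -2.57 ± 0.11 SE). ND-30, its structural neighbor in the module, gave -2.64, and ND-23, a carrier of iron-sulfur clusters, gave -2.47. ND-20 was the noisiest subunit of all. Its level was 274, 332 and 337 CPM with UAS-Antp, against 1956, 990 and 1474 CPM with UAS-GFP, so that UAS-GFP 1 was about as far above UAS-GFP 3 as UAS-GFP 2 was below it. It was the only subunit with a coefficient of variation above 25% in UAS-GFP, at 32.8%. The genotypes still did not overlap, and its log2 fold change was -2.23 ± 0.22 SE (adjusted P = 9.77e-06). It was also the subunit that did not pass under total-count scaling, with a log2 fold change of -0.90 and an adjusted P of 0.00152 in edgeR.

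The accessory subunits of the peripheral arm held both the smallest and the largest fall, and they varied most among themselves, with an SD of 0.32 over 7 subunits. ND-18, the fly counterpart of NDUFS4, which in mammals helps to hold the N module in place, fell least. It had 242, 191 and 226 CPM with UAS-Antp, against 811, 931 and 1032 CPM with UAS-GFP, which leaves 23.8% of the UAS-GFP level (log2 fold change -2.07 ± 0.13 SE). ND-B14.5A, the counterpart of NDUFA7, fell most, with 57.2, 53.5 and 61.5 CPM in UAS-Antp, against 458, 435 and 471 CPM in UAS-GFP, or 12.6% of the UAS-GFP level (-2.99 ± 0.11 SE). Both genes lie on the X chromosome, ND-18 at 19492421 to 19493337 and ND-B14.5A at 2172526 to 2173432 in the dm6 genome.

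The other members of this group fell in between. ND-39, the NDUFA9 counterpart near the junction of the arms, and ND-B17.2, the NDUFA12 counterpart between the N and Q modules, were both at -2.35. ND-B14, an LYR protein that docks an acyl carrier protein in mammals, was at -2.64, close to the median of the complex. ND-13B, the NDUFA5 counterpart, was at -2.75 and ND-13A, the NDUFS6 counterpart with a zinc site, was at -2.79. ND-13A was also among the least abundant subunits, with 28.3, 32.5 and 37.2 CPM in UAS-Antp, against 228, 210 and 239 CPM in UAS-GFP.

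The membrane arm followed the peripheral arm closely. Its proximal part, next to the quinone site, had a median log2 fold change of -2.67 over 7 accessory subunits, and its distal part had -2.66 over 10. The distal subunits, counterparts of the mammalian NDUFB proteins, were the most alike, with an SD of 0.11 and a range of -2.74 for ND-ASHI to -2.40 for ND-B12. ND-ASHI had 69.4, 72.0 and 74.9 CPM in UAS-Antp, against 464, 502 and 479 CPM in UAS-GFP, so the samples of a genotype were nearly equal. In the proximal part, ND-42, the NDUFA10 counterpart with a fold like that of nucleoside kinases, had 265, 257 and 280 CPM in UAS-Antp, against 1347, 1330 and 1528 CPM in UAS-GFP (log2 fold change -2.39 ± 0.11 SE). ND-MWFE was similar at -2.39. ND-B16.6, the counterpart of GRIM-19, gave -2.45, whereas ND-19 gave the largest fall of this part at -2.76. The remaining proximal subunits, ND-15, ND-B14.7 and ND-B14.5B, lay between -2.73 and -2.67. In the distal part, ND-AGGG, ND-B18, ND-SGDH, ND-PDSW, ND-B15, ND-B17 and ND-B22 lay between -2.73 and -2.57. ND-MNLL shares 100% of its exon bases on the same strand with CG45089, and both genes have the same count in all 6 samples, so its log2 fold change of -2.56 belongs to either gene or both.

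The place of a pair of ND- genes in complex I is shared or in doubt. Both are counted among the canonical subunits and in all sums of ND- counts. ND-ACP, the mitochondrial acyl carrier protein, which also serves fatty acid synthesis, had 199, 218 and 259 CPM with UAS-Antp, against 1478, 1430 and 1725 CPM with UAS-GFP (log2 fold change -2.78 ± 0.14 SE). ND-MLRQ, whose mammalian counterpart NDUFA4 has been assigned to cytochrome c oxidase, also gave -2.78. NP15.6 and CG9034, subunits of complex I without the ND- prefix, fell too, with log2 fold changes of -2.32 and -2.77.

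ND-B8 stands outside this pattern. The gene, on chromosome arm 2L at 4454626 to 4455207, is the counterpart of NDUFA2, an accessory subunit of the peripheral arm. It had 0, 2 and 0 counts in UAS-Antp A, B and C, and 9, 0 and 4 counts in UAS-GFP 1, 2 and 3, so that only 2 UAS-GFP samples passed a floor of 3 counts. Every other canonical subunit had at least 2434 counts in each library. With exons of 460 bases ND-B8 is not much shorter than ND-B15, whose exons span 477 bases and which had 3416 to 8515 counts. Of the ND-B8 exon bases 15.4% are shared with Gs1l on the opposite strand, and counting was done by strand. Why its count is so low was not tested, loss of reads that do not map uniquely included, and no fold change is given for it.

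The order of the subunits by level was similar in both genotypes. Per kilobase of exon, and after scaling (RPKM), the median subunit had 162 RPKM with UAS-Antp and 1023 RPKM with UAS-GFP. ND-MLRQ was highest, with 496 ± 55.8 RPKM in UAS-Antp and 3404 ± 617 RPKM in UAS-GFP (SD, n = 3 each), and ND-13B came next in both genotypes. At the low end stood ND-13A, with 34.3 ± 4.72 RPKM in UAS-Antp and 237 ± 15.1 RPKM in UAS-GFP, just behind ND-AGGG, with 35.7 ± 4.35 RPKM in UAS-Antp and 237 ± 42.1 RPKM in UAS-GFP. The highest subunit was thus 14.46 times the lowest with UAS-Antp and 14.38 times with UAS-GFP. Across the 33 subunits, Spearman's rho between the genotypes was 0.94, a description over genes that share their lengths and libraries. Most neighbors in the order cannot be told apart. Of 32 neighboring pairs, 25 with UAS-Antp and 24 with UAS-GFP differed by less than the larger of their SDs. Single subunits still changed place. ND-51 was at rank 19 with UAS-Antp and at rank 10 with UAS-GFP, and ND-18 was at rank 3 with UAS-Antp and at rank 9 with UAS-GFP. By its means ND-20 was at rank 7 with UAS-Antp and at rank 13 with UAS-GFP. Its place with UAS-GFP is uncertain, because its level there was 1103 ± 362 RPKM.

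Measured as a share of the complex I counts in its own library, which no scaling affects, 22 of 33 subunits overlapped between the genotypes, 6 had a higher share in every UAS-Antp sample and 5 a lower one. By the same measure the groups did not overlap for 90.9% of all tested genes. That percentage largely follows from the fall of the summed ND- counts used as the divisor, so it is no yardstick for the subunits. The higher shares were those of ND-18, ND-B17.2, ND-39, ND-MWFE, ND-42 and ND-B12, and the lower ones those of ND-B14.5A, ND-51, ND-13A, ND-ACP and ND-30. ND-18 took 4.36, 3.50 and 3.75% with UAS-Antp, against 2.43, 2.94 and 2.78% with UAS-GFP, a ratio of means of 1.42 and the highest of the complex. ND-B14.5A took 1.03, 0.980 and 1.02% with UAS-Antp, against 1.37, 1.37 and 1.27% with UAS-GFP, and its ratio of 0.754 was the lowest. ND-18 and ND-B14.5A were thus the farthest apart, and the other 9 subunits whose shares did not overlap had ratios between these, such as 0.800 for ND-51, 0.866 for ND-13A, 1.17 for ND-39 and 1.18 for ND-B17.2.

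The 9 ratios between pairs of subunits given here include pairs from the ends of the order of fold changes, and several share ND-51. That 5 of them did not overlap between the genotypes and 4 did was therefore shaped by the choice of pairs. ND-18 over ND-51 was 1.14, 0.772 and 0.797 in UAS-Antp, against 0.432, 0.531 and 0.537 in UAS-GFP, with no overlap. Core subunits also shifted against ND-51, with ND-49 over ND-51 at 2.07, 1.74 and 1.58 in UAS-Antp, against 1.40, 1.38 and 1.45 in UAS-GFP, and ND-24 over ND-51 at 0.717, 0.680 and 0.696 in UAS-Antp, against 0.598, 0.598 and 0.591 in UAS-GFP. The ratios of ND-B17.2 to ND-51 and of ND-18 to ND-B14.5A did not overlap either, whereas those of ND-75 to ND-51, ND-20 to ND-49 and ND-23 to ND-49 did. ND-30 over ND-49 was 0.267, 0.276 and 0.286 in UAS-Antp, against 0.282, 0.292 and 0.298 in UAS-GFP, and the groups overlapped. The choice of these pairs was made with their values in view, and with 3 samples against 3 a two-sided exact permutation test cannot give a P below 0.1.

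**Figure D3:**
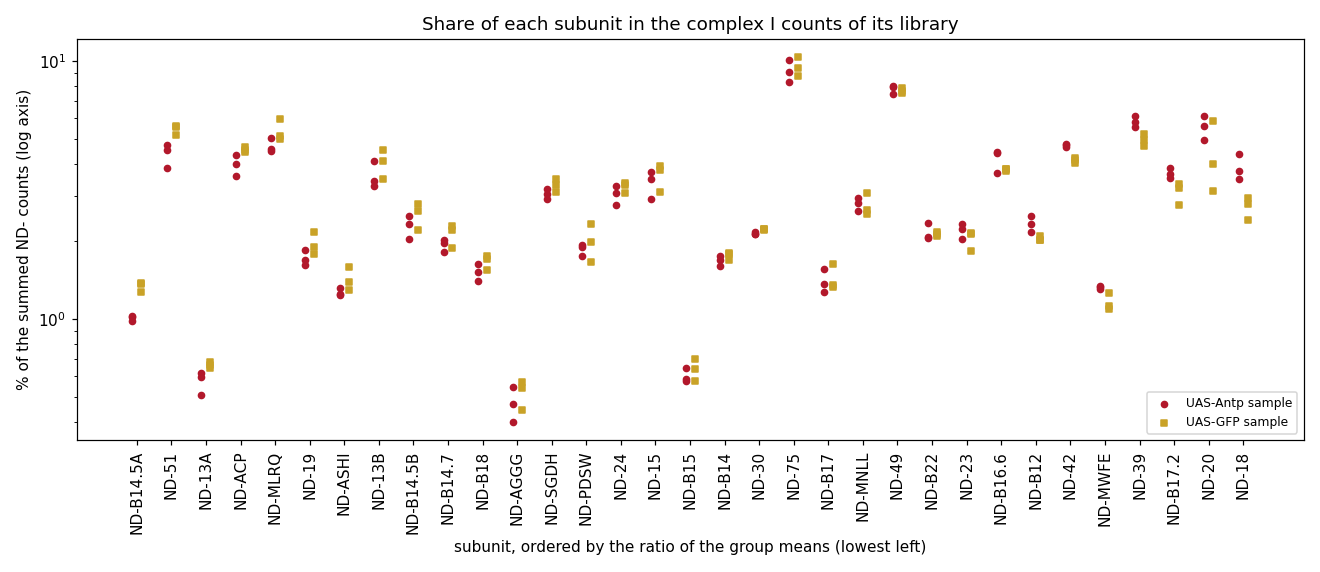
Share of each of the 33 subunits in the summed ND- counts of its library, in percent on a log axis, ordered from the lowest to the highest ratio of group means. The UAS-Antp and UAS-GFP points overlap for 22 subunits, and ND-B14.5A at the left end and ND-18 at the right end are farthest from equal shares.

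None of the 6 paralogs was detected above the floor of 3 counts in any sample. The counts are labeled as unique, and whether reads shared between similar genes were lost was not tested. ND-20L, ND-24L, ND-49L, ND-51L2 and ND-B14.5AL had 0 counts in all 6 libraries, and ND-51L1 had 2 counts in UAS-GFP 2 and 0 elsewhere. At these depths 3 counts correspond to 0.0386 to 0.0475 CPM of the unscaled library with UAS-Antp and to 0.0465 to 0.0632 CPM with UAS-GFP. PCR copies count as separate reads, so these limits reflect counting error alone. The paralogs lie apart from their parent genes, for example ND-20L on 3R at 29515717 to 29516527, whereas ND-20 lies on the X chromosome. ND-49L lies on 3R at 25358285 to 25360034, whereas ND-49 lies on chromosome 4. Per kilobase of exon and against the floor of 3 counts per library, the parent gene was at least 1915-fold higher in every UAS-Antp sample and at least 4357-fold higher in every UAS-GFP sample for ND-B14.5A over ND-B14.5AL. This was the smallest such bound of the 6 pairs, and ND-49 over ND-49L gave the largest, at least 16109-fold with UAS-Antp and 27605-fold with UAS-GFP.

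**Figure D4:**
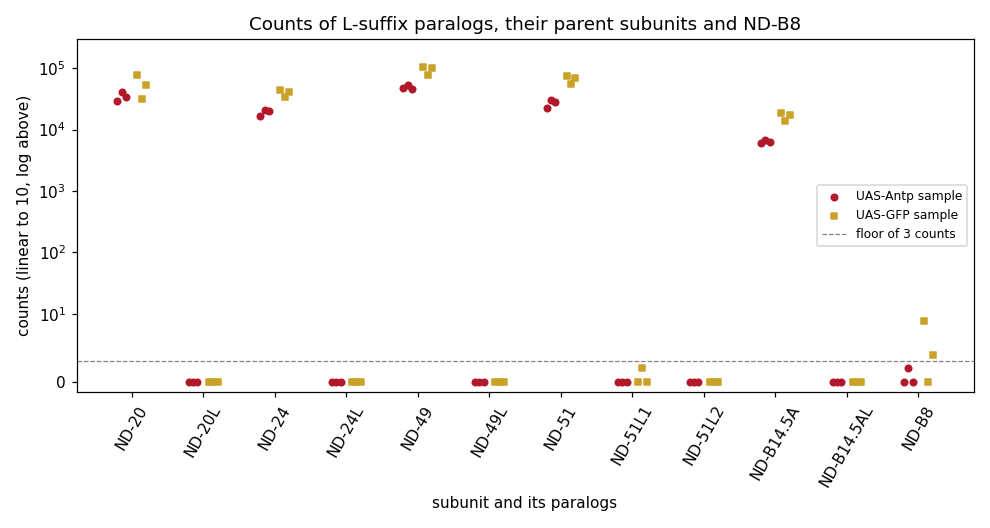
Counts of the 6 paralogs with an added L, of their 5 parent subunits and of ND-B8 in each library, on an axis that is linear up to 10 counts and logarithmic above, with the floor of 3 counts as a dashed line. The parents hold at least 6117 counts and the paralogs 0 to 2, and ND-B8 has 0 to 9, above the floor in 2 UAS-GFP libraries.

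Many nuclear genes for mitochondrial proteins have a second copy used in the Drosophila testis, so the paralogs were read beside 28 testis markers. In UAS-Antp A, B and C, 6, 17 and 5 of the markers were above the floor, against 3, 1 and 3 in UAS-GFP 1, 2 and 3, and 6 markers were at 0 in all samples. Their summed level was 8.56 to 10.8 CPM with UAS-Antp and 1.20 to 1.70 CPM with UAS-GFP. Most of that sum came from tomb, with 800, 687 and 789 counts in UAS-Antp A, B and C and 0 counts in each UAS-GFP sample. UAS-Antp B stood apart through some markers of late male germ cells. It had 140 counts of loopin-1, 112 of betaTub85D and 88 of dj, where UAS-Antp A and C had 0 or 1. Counts of ocn, Mst98Ca, djl and Mst84Da were 48, 38, 18 and 17 there and 0 in every other sample. Prosalpha3T, Mst98Cb, Mst84Dc, Prosalpha6T and Mst84Db were also above the floor in UAS-Antp B only, with 4 to 12 counts. Others did not follow. Mst84Dd and fzo were at 0 in every sample, and topi had 40 counts in UAS-Antp A only. Mst77F had 18, 42 and 6 counts in UAS-Antp A, B and C, against 10, 38 and 38 in UAS-GFP. Mst87F had 6, 29 and 4 counts in UAS-Antp, against 26, 2 and 16 in UAS-GFP. The ND- paralogs were at 0 in UAS-Antp B as well. Among 10 L-suffix genes of the other respiratory complexes, 6 were above the floor in UAS-Antp B, where the largest count was 15, for UQCR-14L. In UAS-Antp A 1 was above it, in UAS-Antp C 2 were, and 3 were in at least 1 UAS-GFP sample. UQCR-11L had 0, 5 and 12 counts in UAS-Antp A, B and C, against 89, 61 and 31 in UAS-GFP, and 89 was the largest count of all. COX5BL had 4, 5 and 11 counts in UAS-Antp, against 24, 4 and 32 in UAS-GFP.

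The assembly factors of complex I, which help to build it without staying in it, fell as well. All 10 of those listed passed, where 19.3% of all tested genes were called lower, with a median log2 fold change of -2.49, but they were less uniform than the subunits, with an SD of 0.74. CG17726, the NDUFAF7 counterpart, fell most, with 12.9, 14.8 and 13.6 CPM in UAS-Antp, against 140, 140 and 141 CPM in UAS-GFP (log2 fold change -3.35 ± 0.11 SE). CG8067, the NDUFAF5 counterpart, followed at -3.26. ECSIT and CG5569, the NDUFAF3 counterpart, were both at -2.93 and l(2)37Bb, the FOXRED1 counterpart, was at -2.71. The rest were 140up (TIMMDC1) at -2.28, CIA30 (NDUFAF1) at -2.26, CG11722 (NDUFAF4) at -2.21 and sicily (NDUFAF6) at -1.95.

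CG3262 was the exception among the assembly factors. It is the counterpart of NUBPL, which brings iron-sulfur clusters to complex I. It had 15.7, 13.3 and 12.2 CPM in UAS-Antp, against 26.1, 24.5 and 24.0 CPM in UAS-GFP, which leaves 55.2% of the UAS-GFP level (log2 fold change -0.86 ± 0.14 SE, adjusted P = 3.38e-04). This call was fragile. In edgeR, its adjusted P rose above 0.001 in 5 of the 6 fits that left out a sample, up to 0.00204, with only the fit without UAS-Antp A still passing. Under total-count scaling its direction reversed, with a log2 fold change of 0.46 and an adjusted P of 0.0154.

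The subunits encoded in mitochondria could not be read. ND1, ND2, ND3, ND4, ND4L, ND5 and ND6, which encode the proton-pumping core of the membrane arm, are listed at 0 in all 6 samples, as are all 37 genes of the mitochondrial genome.

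Complex I moved with the listed genes of the other respiratory complexes. The median log2 fold change was -2.38 over the 4 genes of complex II (4 lower), -2.76 over the 9 tested genes of complex III (8 lower), -2.46 over the 8 tested nuclear genes of complex IV (6 lower, 1 higher) and -2.55 over the 11 tested genes of ATP synthase (11 lower). Of all tested genes 19.3% were called lower and 16.3% higher. The 33 subunits of complex I, at -2.65, lay within this range. The sets are not quite alike, because the lists of the other complexes keep L-suffix genes. Those not called in complexes III and IV were the L-suffix genes UQCR-11L and COX5BL, with at most 89 and 32 counts in a sample. The lists hold mainly genes named after their complex and need not include every subunit. Their medians and sums therefore stand for the listed genes, not for whole complexes. The proportions between complexes were kept in part. Summed ND- counts were 4.33, 4.18 and 4.24 times those of complex II in UAS-Antp, against 3.78, 4.34 and 4.40 times in UAS-GFP, with overlap. Relative to ATP synthase the ratio was 0.432, 0.402 and 0.473 in UAS-Antp, against 0.443, 0.507 and 0.460 in UAS-GFP, also with overlap. Such sums weigh the most abundant genes most. ATPsynC had a mean of 7159 CPM with UAS-Antp and 37592 CPM with UAS-GFP. The next gene of that list, ATPsynbeta, had 1645 and 9501 CPM. In complex II, SdhA had 820 and 5461 CPM, and the next gene, SdhB, had 306 and 1743 CPM.

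The ratios to complexes III and IV did not overlap, for complex III by a narrow margin, and how often other such ratios separate was not tested. Relative to complex III the ratio was 1.87, 1.86 and 1.93 in UAS-Antp, against 1.53, 1.81 and 1.62 in UAS-GFP, and relative to complex IV it was 1.48, 1.48 and 1.49 in UAS-Antp, against 1.96, 1.72 and 1.71 in UAS-GFP. COX7A, a small subunit of complex IV and the only gene of these lists that rose, had 31077, 39297 and 33458 counts in UAS-Antp, against 487, 410 and 429 counts in UAS-GFP, and is named here after its values were seen. Without COX7A the ratio to complex IV was 1.61, 1.62 and 1.62 in UAS-Antp, against 1.96, 1.72 and 1.71 in UAS-GFP, so the groups were still apart. No subunit of complex I showed such a rise.

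**Figure D5:**
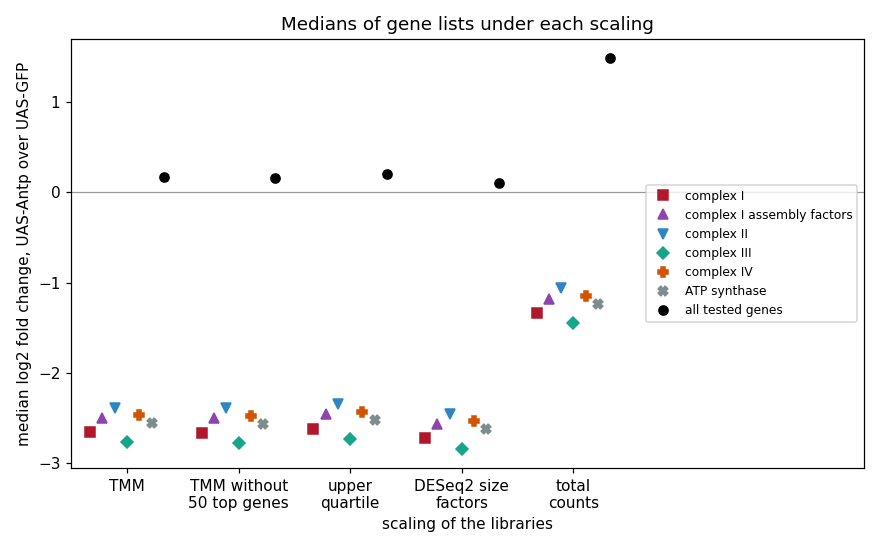
Median log2 fold change, UAS-Antp over UAS-GFP, of complex I, its assembly factors, the listed genes of the other respiratory complexes and all tested genes under each of 5 scalings of the libraries. The respiratory lists stay together, between -2.76 and -2.38 under TMM, and move up with the median of all genes under total counts, where complex I is at -1.34 and all tested genes at 1.48.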

How the data were processed

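The authors prepared stranded polyA libraries from dissected IFMs and deposited 1 table of counts, without normalization, for 17611 genes on the dm6 genome. These counts are labeled as unique and stranded. The submitters' processing notes name bcl2fastq, Subread, featureCounts and DESeq2 1.34, while alignment and counting are described in a publication not used here. Among genes at 5 to 50 counts, 75.0 to 81.0% had an even count, so mates of a pair appear to have been counted separately. The number of per-sample columns not used was 0. The authors' comparison table served for gene symbols only, and its mean, fold change and p-value columns were not used. The 40 members were joined by gene identifier.

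Genes were filtered with filterByExpr, scaled with TMM and fitted by edgeR 4.0.16 (glmQLFit and glmQLFTest, R 4.3.3) over all 6 samples with genotype as the only term. P-values were adjusted by the Benjamini-Hochberg method over the 9546 genes tested, with a threshold of 0.001 taken from the study's methods. The standard error was the size of the log2 fold change over the square root of F. CPM are counts per 1000000 after TMM scaling, RPKM are CPM per kilobase of summed exon length, and SDs are over 3 samples. Values of up to 3 counts were read as not detected. DESeq2 1.42.0 was an alternative, beside other scalings, filters and thresholds and fits without each sample in turn. The procedure was tested on simulated counts. The simulation changed few genes, in both directions, and took its library scaling from these data, so it cannot tell which scaling is right.

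The genes named by rule are all ND- genes, the 10 assembly factors, NP15.6, CG9034, the mitochondrial ND genes and Antp. Marker genes come from the marker lists, and CG45089 and Gs1l are named as genes that share exon bases with a member. COX7A, UQCR-14L, UQCR-11L, COX5BL, ATPsynC, ATPsynbeta, SdhA, SdhB and the single testis markers were picked with their values in view. Members and lists were chosen with earlier results of these data known. After the data were seen, the keys of 2 assembly factors were replaced through RefSeq synonyms. The genes first entered were CG1409, with 0 counts in every sample, and CG3270, with 0, 14 and 4 counts in UAS-Antp and 0, 0 and 2 counts in UAS-GFP. The testis marker rye was not matched. Coordinates are those of the count table. They are identical, strand included, for 17540 of the 17556 genes shared with Ensembl release 115. Exon overlaps were taken from the count table, where 3 ND- genes share exon bases with a gene on the same strand and 16 with a gene on the opposite strand.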

Additional observations from a re-analysis of the deposited data

How the results depend on the processing

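All 33 tested subunits were lower with UAS-Antp in all 13 alternatives, and 32 passed in each of them. The exception was ND-20 under total-count scaling. Under scaling by total counts, the number of genes called was 5655 (4969 higher, 686 lower), the median log2 fold change of the subunits was -1.34, and the medians of the assembly factors, complexes II, III and IV and ATP synthase were -1.17, -1.06, -1.44, -1.14 and -1.23. CG3262 reversed to 0.46. The threshold of 0.05 gave 5807 genes (3123 higher). Leaving out each sample gave subunit medians between -2.71 and -2.60, and CG3262 between -0.96 and -0.78. As a share of the counts outside the 50 most abundant genes, ND- genes took 1.29% with UAS-Antp and 4.26% with UAS-GFP. Without a filter on low counts and with DESeq2's Wald test, ND-B8 entered the fit and did not pass. No paired analysis was possible because the labels number the UAS-GFP samples 1 to 3 and the UAS-Antp samples 4 to 6, so the groups share no number. With 3 samples a genotype, differences between subunits of the size of their standard errors were not detectable.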
